A study of Homo sapiens with 9 samples.

Results

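The genes described here encode the sorting nexins, the retromer trimer and a set of phosphoinositide phosphatases, in a human leukaemia line in which the transcription factor NFATC2 was knocked down. They were chosen by name, but with earlier results of these data known. The choice was every protein-coding gene whose symbol is SNX followed by digits, plus 21 named phosphatase, kinase and retromer genes, as far as the authors' deposited comparison tables list them. This gave 50 genes of the 58735 in the count table, of which 49 had enough reads to be tested. The exception was SNX15, with 0 to 9 reads per library.

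Sorting nexins carry a PX domain, a fold that binds phosphoinositides, the phosphorylated forms of the membrane lipid phosphatidylinositol. Which phosphoinositide a membrane holds marks it as plasma membrane, early endosome or late endosome, and kinases and phosphatases convert one form into another as vesicles mature. Retromer (VPS26, VPS29 and VPS35) selects cargo receptors on endosomes and, with sorting nexins that bend membranes through a BAR domain, returns them to the Golgi or the cell surface. In myeloid cells the same machinery serves phagosomes and lysosomes, and INPP5D (SHIP1) restrains signalling through PI 3-kinase.

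The samples were THP-1 cells, an established monocytic acute myeloid leukaemia line that carries the MLL-AF9 fusion. There were 3 groups of 3 libraries each of polyadenylated RNA: cells given the NFATC2 construct shRNA-143, cells given the NFATC2 construct shRNA-146, and control cells given a non-targeting shRNA. All 3 groups were spinoculated with lentivirus made in 293T cells, put under puromycin from 24 hours, and harvested 48 hours after spinoculation, so the controls share the virus and the drug. The series calls the replicates biological, but nothing says that they were separate cultures, and the p-values measure the spread between these libraries only.

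Library totals ran from 40047459 to 44669709 counts. NFATC2 itself had 1.49, 7.4 and 6.95 CPM (counts scaled to library size by TMM) in shRNA-143 libraries and 2.59, 6.71 and 9.43 CPM in shRNA-146 libraries, against 12.7, 27.6 and 27.4 CPM in controls (replicates 1, 2 and 3). Both shRNA groups lay below all controls and overlapped each other, and within each group the library numbered 1 was lowest. The log2 fold changes were -2.27 ± 0.24 (SE) and -1.96 ± 0.23 in the fit with the replicate number, with edgeR adjusted p-values of 0.00168 and 0.00435, and without it these were 0.497 and 0.464. Of 16 markers of monocytic leukaemia cells all had counts, and 15 averaged over 1 CPM in controls. The exception was CD68, at 0.306 CPM with shRNA-143, 0.276 CPM with shRNA-146 and 0.251 CPM in controls. Led by CTSG and AZU1, the 16 summed to 3150 to 4000 CPM with shRNA-143, 2760 to 3500 CPM with shRNA-146 and 3060 to 3770 CPM in controls. Of the 6 T-cell markers CD3D, CD3E, CD3G, CD2 and TRAC were at 0, as were 4 of 5 erythroid markers. The remaining T-cell marker, CD8A, averaged 0.56 CPM with shRNA-143, 0.569 CPM with shRNA-146 and 0.643 CPM in controls. The 10 markers of 293T cells, of which 7 had counts, summed to 6.85 to 8.24, 5.05 to 7.65 and 7.48 to 9.44 CPM in the same order of groups. The 5 B-cell markers, led by CD79B and PAX5, with MS4A1 at 0, summed to 29.1 to 42.3, 25.8 to 46 and 25.2 to 31.2 CPM, and the 5 markers of fibroblasts to 1.67 to 2.95, 1.9 to 3.85 and 1.7 to 3.51 CPM. The part of other cells in the results was not tested. In bulk RNA, fewer cells of a type and less RNA per cell cannot be told apart.

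The quasi-likelihood test of edgeR was run in 2 fits over all 14975 tested genes, with Benjamini-Hochberg adjustment and a threshold of 0.05. The first, the main fit by design, compared the 3 group means. The second, the alternative by design, added the replicate number as a block. Libraries of the same number deviated together in every pair, and 7 of the 9 libraries were best matched by their own number in both other groups. For members, adjusted p-values of both fits are given wherever they differ in a call for a single shRNA against control.

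OCRL, SNX16, SYNJ1 and SNX13 rose with each shRNA in the blocked fit, and OCRL was the one member to pass without the block. OCRL encodes the Lowe syndrome phosphatase, which removes the 5-phosphate of PI(4,5)P2 on endosomes and at the cell surface. SNX16 is a PX-only nexin of late endosomes, SYNJ1 a phosphatase that strips phosphoinositides during clathrin uncoating at synapses, and SNX13 a nexin with an RGS domain. No member fell in either fit of all 9 libraries. In the blocked fit SNX9 and INPP5A also passed, SNX9 for shRNA-146 and for the mean of both shRNAs, and INPP5A for shRNA-146. The 43 tested members that passed in no comparison had blocked log2 changes between -0.48 (VPS29) and 0.60 (SNX32) with shRNA-143, and between -0.30 (INPP5K) and 0.94 (SNX32) with shRNA-146.

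On hg38, in GENCODE 29 coordinates as deposited, OCRL lies at chrX:129539849-129592561 on the plus strand, SYNJ1 at chr21:32628759-32728048 on the minus strand and SNX13 at chr7:17790761-17940501 on the minus strand. SNX9 lies at chr6:157700387-157945077 and INPP5A at chr10:132537820-132783480, both on the plus strand.

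**Figure D1:**
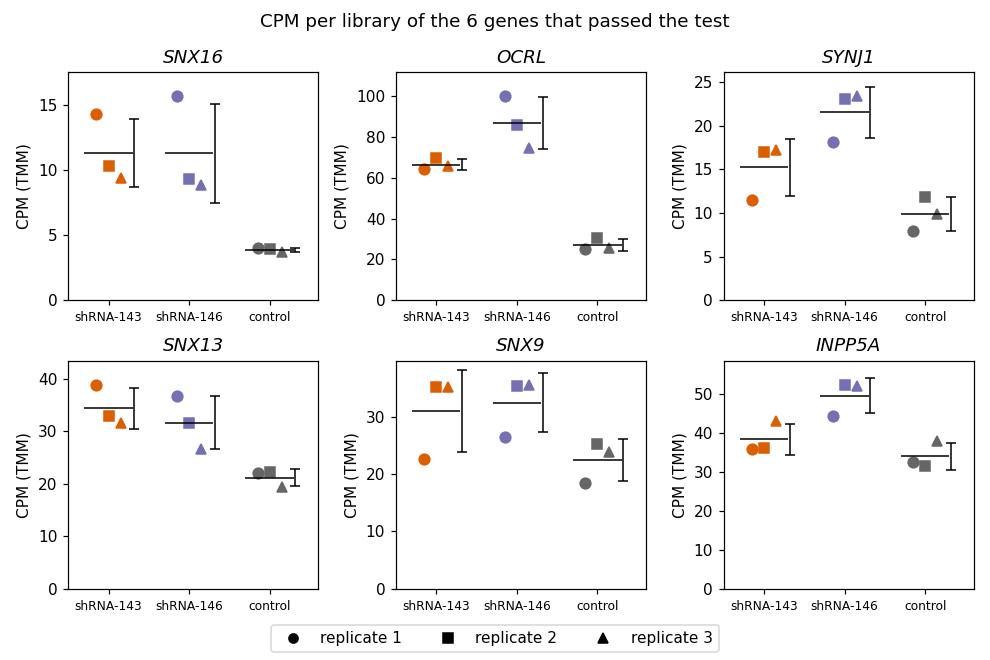
CPM after TMM scaling (y axis, from 0) of the 6 genes that passed in at least 1 comparison, per library, for shRNA-143, shRNA-146 and control (left to right). Marker shape gives the replicate number, horizontal lines the group means and error bars 1 SD (n = 3). OCRL, SNX16 and SNX13 have both shRNA groups wholly above the controls, and SYNJ1 has its highest values with shRNA-146.

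For shRNA-143 against control, 0 of 49 members passed in the fit without the block, where 0.0467% of all tested genes passed in either direction. In that fit 4 members had an unadjusted p under 0.05, all higher, where 3.19% of all genes were. With the block 4 members passed, all higher, where 3.17% of all genes passed and 1.6% passed as higher. For shRNA-146 against control, 1 member passed without the block (background 0.0334%) and 6 were higher at an unadjusted p under 0.05 (background 4.28%), and 6 passed with it, all higher (background 4.42%, of which 2.46% higher). For the mean of both shRNAs, 1 member passed without the block (background 0.0334%), 7 were higher at an unadjusted p under 0.05 (background 4.39%), and 5 passed with it, all higher (background 5.74%, of which 2.98% higher). The shRNA comparisons share their control libraries, so their counts are not independent of each other. When single libraries were left out, the blocked counts of members called higher ran from 2 to 7, 2 to 8 and 2 to 11. They were 7, 8 and 11 without shRNA-146 replicate 1, where 13.7%, 11.4% and 20.1% of all genes passed in either direction. The count of 2 was reached for shRNA-146 without control replicate 2, for the mean without control replicate 2 or 3, and for shRNA-143 without any 1 of 7 libraries. Without control replicate 2, only 0.378%, 0.176% and 0.0912% of all genes passed in the 3 comparisons.

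On the log2 scale the median member was 0.15 higher for shRNA-143 and 0.22 higher for shRNA-146, where the median over all tested genes was 0.02 and 0.05. Of the 49 members, 38 lay above 0 with shRNA-143 and 38 with shRNA-146, against 52.2% and 55.4% of all tested genes. With the block the member medians were 0.15 and 0.19, against 0 and 0.02 over all genes. By role, the blocked medians for the mean of both shRNAs were 0.35 for inositol 5-phosphatases and synaptojanins, 0.26 for the BAR nexins not linked to retromer, and 0.20 for those linked to it. They were 0.19 for nexins with FERM, RGS or MIT domains, 0.17 for SAC phosphatases and PIKFYVE, 0.09 for myotubularins, 0.08 for PX-only nexins and -0.06 for the retromer trimer.

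**Figure D2:**
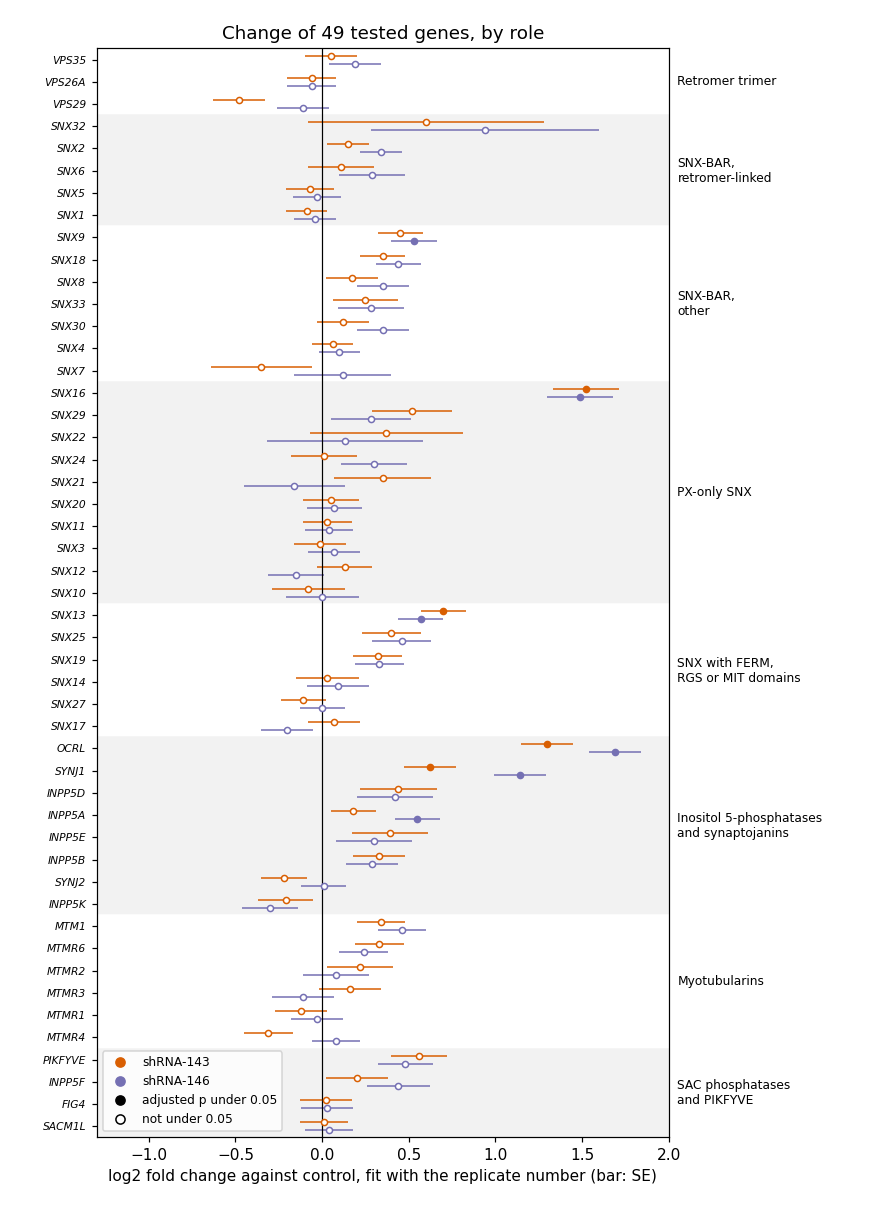
Log2 fold change against control (x axis) of the 49 tested genes in the fit with the replicate number, for shRNA-143 (orange, upper) and shRNA-146 (purple, lower), with bars of 1 SE and genes grouped by role. Filled points passed at an adjusted p under 0.05: all lie right of 0, and the farthest right are OCRL and SNX16.

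OCRL stood at 64.1, 69.5 and 65.9 CPM in shRNA-143 libraries and 100, 86 and 74.5 CPM in shRNA-146 libraries, against 24.9, 30.6 and 25.5 CPM in controls. Every shRNA library was above every control, and every shRNA-146 library was above every shRNA-143 library. In the fit without the block the log2 fold change was 1.30 ± 0.18 (SE) for shRNA-143, with an adjusted p of 0.0566 by edgeR, and 1.69 ± 0.18 for shRNA-146, with an adjusted p of 0.0273. With the block the same changes had adjusted p-values of 0.00191 and 0.000713, which is 2.47-fold and 3.22-fold higher than control. The mean of both shRNAs gave 1.49 ± 0.17 without the block (adjusted p = 0.0227). Within replicate numbers 1, 2 and 3 the log2 differences of the mean of both shRNAs from control were 1.67, 1.32 and 1.44.

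The OCRL call held in every one of the 18 blocked settings tried for each shRNA and the 17 for their mean, with log2 changes between 1.21 and 1.82. Without the block its call for shRNA-146 was lost when any single library was left out, except shRNA-146 replicate 1. In the authors' deposited table OCRL changed by 1.32 (log2) with shRNA-143, with an adjusted p of 2.2e-07. The authors' deposited table for shRNA-146 gives 1.69, with an adjusted p of 9.83e-07. No exonic base of OCRL is shared with another annotated gene.

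SYNJ1 had 11.5, 17 and 17.2 CPM in shRNA-143 libraries and 18.2, 23.1 and 23.4 CPM in shRNA-146 libraries, against 7.94, 11.8 and 9.85 CPM in controls. The shRNA-146 libraries were all above the controls, while shRNA-143 replicate 1 fell inside the control range. With the block SYNJ1 was 0.62 ± 0.15 higher (log2) with shRNA-143 (adjusted p = 0.045, edgeR) and 1.14 ± 0.15 higher with shRNA-146 (adjusted p = 0.00499). Without the block the adjusted p-values were 0.647 and 0.23. The authors' deposited table lists SYNJ1 at an adjusted p of 0.0289 for shRNA-146, and the authors' deposited table for shRNA-143 at 0.492. In the blocked settings SYNJ1 passed in 17 of 18 for shRNA-146, the exception being the fit without control replicate 2 (adjusted p = 0.0579), and in 9 of 18 for shRNA-143.

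INPP5A, which ends inositol trisphosphate signalling by removing the 5-phosphate of soluble inositol phosphates, had 36, 36.3 and 43.1 CPM in shRNA-143 libraries and 44.5, 52.4 and 52.1 CPM in shRNA-146 libraries. Controls had 32.5, 31.5 and 38.1 CPM. The shRNA-146 libraries lay above all others and the shRNA-143 libraries overlapped the controls. The blocked change was 0.55 ± 0.13 for shRNA-146 (adjusted p = 0.0407, edgeR) and 0.18 ± 0.13 for shRNA-143 (adjusted p = 0.468). Without the block the adjusted p-values were 0.448 and 0.937. The authors' deposited tables give INPP5A adjusted p-values of 0.918 for shRNA-143 and 0.557 for shRNA-146. It passed for shRNA-146 in 9 of 18 blocked settings, and among single left-out libraries only without shRNA-146 replicate 1. On 8.15% of its exonic bases INPP5A overlaps NKX6-2 on the opposite strand.

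The other 5 inositol 5-phosphatases and synaptojanins did not pass in either fit of all 9 libraries. INPP5D, the haematopoietic phosphatase SHIP1, spread widely: 60.4, 174 and 176 CPM with shRNA-143 and 43.4, 173 and 219 CPM with shRNA-146, against 52.8, 140 and 95 CPM in controls. In every group the library numbered 1 was the lowest. The blocked log2 changes of INPP5D were 0.44 ± 0.22 and 0.42 ± 0.22. It passed as higher in 1 of 18 blocked settings for shRNA-143, the 2 groups alone, and in 2 of 18 for shRNA-146, without shRNA-146 replicate 1 and without the libraries numbered 1. INPP5B, the closest relative of OCRL, changed by 0.33 ± 0.15 with shRNA-143 and 0.29 ± 0.15 with shRNA-146, and SYNJ2, the relative of SYNJ1, by -0.22 ± 0.13 and 0.01 ± 0.13.

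Per kilobase of gene length, OCRL averaged 11 ± 0.446 in shRNA-143 libraries and 14.3 ± 2.14 in shRNA-146 libraries, against 4.45 ± 0.521 in controls (CPM per kilobase, SD, n = 3). INPP5B on that scale averaged 1.35 ± 0.375 and 1.31 ± 0.358, against 1.07 ± 0.3. SYNJ1 averaged 1.89 ± 0.401 and 2.67 ± 0.366, against 1.22 ± 0.236. SYNJ2 averaged 2.15 ± 0.319 and 2.51 ± 0.291, against 2.5 ± 0.316. So OCRL was the more abundant of its pair in every group. The SYNJ1 mean was below the SYNJ2 mean by more than their SDs in controls, below it within their SDs with shRNA-143, and above it within their SDs with shRNA-146. Summed per length, the 8 genes of this role averaged 46 ± 9.52 with shRNA-143 and 54.4 ± 10.9 with shRNA-146, against 33.1 ± 6.22 in controls.

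The promoters of the 3 called genes that passed with each shRNA in the blocked fit, SNX16 aside, are shown because these genes rose together. SNX16 is left out because the promoter set used here held no sequence for it. They are RefSeq sequences on GRCh38.p14, 250 bases before to 50 after the annotated start, written 5′ to 3′ on the gene's strand, and capitals mark GGAAA, the core of NFAT sites, or its reverse complement TTTCC. OCRL lies at chrX:129540009-129540308 (plus strand), SYNJ1 at chr21:32727964-32728263 (minus strand) and SNX13 at chr7:17940445-17940744 (minus strand). SYNJ1 has 3 starts in the table, and the one nearest the deposited gene's 5′ end is shown.
OCRL: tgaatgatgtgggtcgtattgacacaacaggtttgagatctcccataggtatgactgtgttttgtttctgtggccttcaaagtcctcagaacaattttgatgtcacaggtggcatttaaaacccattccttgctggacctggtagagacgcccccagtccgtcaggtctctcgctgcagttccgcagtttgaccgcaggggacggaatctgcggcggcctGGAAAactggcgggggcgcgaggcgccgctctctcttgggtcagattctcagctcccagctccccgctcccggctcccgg
SYNJ1: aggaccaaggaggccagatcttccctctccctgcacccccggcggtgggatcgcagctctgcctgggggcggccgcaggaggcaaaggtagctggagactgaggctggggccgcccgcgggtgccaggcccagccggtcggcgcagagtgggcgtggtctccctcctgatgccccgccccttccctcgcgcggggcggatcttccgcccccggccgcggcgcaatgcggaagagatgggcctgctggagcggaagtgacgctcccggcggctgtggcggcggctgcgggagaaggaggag
SNX13: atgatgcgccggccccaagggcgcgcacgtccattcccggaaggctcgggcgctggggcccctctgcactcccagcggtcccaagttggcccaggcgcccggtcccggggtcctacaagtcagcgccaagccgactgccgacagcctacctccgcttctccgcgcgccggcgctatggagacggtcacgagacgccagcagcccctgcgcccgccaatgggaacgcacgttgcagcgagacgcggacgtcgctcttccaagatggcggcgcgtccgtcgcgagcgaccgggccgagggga
OCRL holds 1 match, and SYNJ1 and SNX13 hold 0. The motif was searched on both strands, as were TGANTCA and CACGTG, which none of the 3 windows holds. Of 35116 RefSeq promoters of this length, 61.2% hold GGAAA or TTTCC, 7.71% hold TGANTCA and 7.26% hold CACGTG. Among the 63 promoter windows of the 42 members in the table, 46.0% hold GGAAA or TTTCC, 7.94% TGANTCA and 3.17% CACGTG. The matches are letters in these windows only.

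SNX16 had the lowest control level of the genes that passed and the largest blocked change with shRNA-143. It stood at 14.3, 10.3 and 9.37 CPM in shRNA-143 libraries and 15.7, 9.33 and 8.86 CPM in shRNA-146 libraries, against 3.99, 3.94 and 3.67 CPM in controls. All 6 shRNA libraries were above all 3 controls, and in both shRNA groups replicate 1 was highest. With the block SNX16 rose by 1.52 ± 0.19 (adjusted p = 0.00287, edgeR) and 1.49 ± 0.19 (adjusted p = 0.00456), and the difference between the shRNAs was -0.02 ± 0.18. It passed in all 18 blocked settings for each shRNA. Without the block the changes were 1.55 ± 0.28 and 1.54 ± 0.28, with adjusted p-values of 0.15 and 0.176. The authors' deposited table gives 1.56 for shRNA-143 (adjusted p = 7.56e-06), and the authors' deposited table for shRNA-146 gives 1.55 (adjusted p = 0.00383).

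The other 9 PX-only nexins did not pass in either fit. SNX3, which recruits retromer to early endosomes, had 910, 473 and 510 CPM with shRNA-143 and 1050, 508 and 476 CPM with shRNA-146, against 783, 469 and 597 CPM in controls. SNX10, which acts in endosome and lysosome acidification and in osteoclasts, had 305, 194 and 167 CPM and 448, 180 and 134 CPM, against 267, 207 and 201 CPM. For both genes the groups overlapped and replicate 1 was highest in each group. SNX29, counted in this group although it also has a RUN domain, had the next largest blocked change after SNX16 for the mean of both shRNAs. It changed by 0.52 ± 0.23 with shRNA-143 and 0.28 ± 0.23 with shRNA-146 in the blocked fit.

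SNX13 had 38.8, 32.9 and 31.5 CPM in shRNA-143 libraries and 36.7, 31.6 and 26.7 CPM in shRNA-146 libraries, against 22, 22.2 and 19.3 CPM in controls. Both shRNA groups were above all controls. The blocked changes were 0.70 ± 0.13 (adjusted p = 0.0229, edgeR) and 0.57 ± 0.13 (adjusted p = 0.0388), and without the block the adjusted p-values were 0.428 and 0.448. The authors' deposited tables give SNX13 adjusted p-values of 0.0769 for shRNA-143 and 0.586 for shRNA-146. When gene length was corrected for, the blocked changes were 0.47 and 0.29, with adjusted p-values of 0.125 and 0.314, and the calls were lost. SNX13 passed in 10 and 9 of the 18 blocked settings for the shRNAs, and in neither comparison when any 1 control library was left out.

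Among the nexins with FERM, RGS or MIT domains, SNX13 alone passed. SNX25, also with an RGS domain, changed by 0.40 ± 0.17 and 0.46 ± 0.17 in the blocked fit. SNX17, a FERM nexin that returns integrins and LDL-receptor relatives to the surface, had 205, 117 and 117 CPM and 126, 115 and 113 CPM, against 158, 123 and 128 CPM. SNX14, whose loss causes a cerebellar ataxia, changed by 0.03 ± 0.18 and 0.09 ± 0.18.

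The retromer trimer did not pass in any comparison in either fit. VPS35, its scaffold, had 153, 137 and 128 CPM with shRNA-143 and 213, 137 and 120 CPM with shRNA-146, against 145, 136 and 123 CPM in controls. VPS26A, which joins the trimer to nexins, averaged 120 ± 17.2 and 122 ± 40.1 CPM in the shRNA-143 and shRNA-146 libraries, against 125 ± 16 CPM (SD, n = 3). VPS29, which binds regulators of the complex, had 51.9, 33 and 32.5 CPM and 76, 38 and 40.9 CPM, against 66.9, 40.1 and 55.4 CPM. The groups overlapped for all 3 genes. VPS29 had the lowest blocked change with shRNA-143, -0.48 ± 0.15 (adjusted p = 0.115, edgeR), and with shRNA-146 it was -0.11 ± 0.15. For shRNA-143 it passed as lower with the block without shRNA-146 replicate 1 (adjusted p = 0.0234), in the fit of the 2 groups compared alone (adjusted p = 0.0132), and without the libraries numbered 1 (adjusted p = 0.0413).

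Of the nexins that tubulate membranes with retromer, SNX1, SNX2, SNX5, SNX6 and SNX32, none passed in either fit of all 9 libraries. SNX2 had 105, 94.1 and 96.8 CPM and 134, 106 and 99.7 CPM, against 95.8, 84.9 and 85.9 CPM, and only the shRNA-146 libraries lay above all controls. SNX2 passed for shRNA-146 in 1 of 18 blocked settings, that with library size scaling. SNX5 changed by -0.07 ± 0.14 and -0.03 ± 0.14 in the blocked fit. SNX32 had under 0.5 CPM in every library.

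Among the other BAR nexins, SNX9, which couples dynamin to clathrin-coated pits, had 22.7, 35.2 and 35.1 CPM with shRNA-143 and 26.5, 35.3 and 35.5 CPM with shRNA-146, against 18.4, 25.3 and 23.8 CPM in controls. The shRNA-146 libraries were above all controls, and shRNA-143 replicate 1 overlapped them. The blocked change was 0.53 ± 0.13 with shRNA-146 (adjusted p = 0.0473, edgeR) and 0.45 ± 0.13 with shRNA-143 (adjusted p = 0.0928), and 0.49 ± 0.11 for the mean of both (adjusted p = 0.0361). Without the block the changes were 0.53 ± 0.24, 0.46 ± 0.24 and 0.49 ± 0.21, with adjusted p-values of 0.567, 0.808 and 0.516. With gene length corrected the shRNA-146 call was lost (adjusted p = 0.0658), and it passed in 7 of 18 blocked settings. The authors' deposited tables give SNX9 adjusted p-values of 0.733 for shRNA-143 and 0.704 for shRNA-146. Its relative SNX18 had 27.1, 31.7 and 27.9 CPM and 30.1, 35.2 and 27 CPM, against 23, 23.1 and 21.7 CPM. Every SNX18 value with either shRNA was above all controls, as for 3.08% of all tested genes, while the shRNA groups overlapped each other. SNX18 missed the threshold, at 0.35 ± 0.13 (adjusted p = 0.166) and 0.44 ± 0.13 (adjusted p = 0.0851) in edgeR's blocked fit. It passed in 1 and 2 of 18 blocked settings for shRNA-143 and shRNA-146. SNX4, which acts in recycling and autophagy, changed by 0.06 ± 0.12 and 0.10 ± 0.12.

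The myotubularins, which remove the 3-phosphate from PI(3)P and PI(3,5)P2, had no member that passed in either fit of all 9 libraries. MTM1, mutated in myotubular myopathy, changed by 0.34 ± 0.14 with shRNA-143 (adjusted p = 0.213) and 0.46 ± 0.14 with shRNA-146 (adjusted p = 0.087) in edgeR's blocked fit. MTM1 passed as higher in 2 of the 18 blocked settings for each shRNA: for shRNA-143 without shRNA-146 replicate 1 and in the 2 groups alone, and for shRNA-146 with library size scaling and with DESeq2. MTMR6, which passed for shRNA-143 in the blocked fit of the 2 groups alone, changed by 0.33 ± 0.14 and 0.24 ± 0.14, and MTMR2, mutated in a Charcot-Marie-Tooth neuropathy, by 0.22 ± 0.19 and 0.08 ± 0.19. MTMR3, at 65.3% of whose exonic bases genes on the opposite strand lie, is uncertain, as no source used here says whether counting used strand.

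PIKFYVE, the kinase that makes PI(3,5)P2, had 30.1, 61.3 and 60.5 CPM with shRNA-143 and 37.5, 50.4 and 50.7 CPM with shRNA-146, against 27.2, 39.7 and 32.6 CPM in controls. The groups overlapped, and replicate 1 was lowest in each. Its blocked change was 0.56 ± 0.16 (adjusted p = 0.0889, edgeR) and 0.48 ± 0.16 (adjusted p = 0.111). PIKFYVE passed as higher for shRNA-143 in 6 of 18 blocked settings, among them without shRNA-146 replicate 1, without shRNA-146 replicate 3 and without the libraries numbered 1, and for shRNA-146 in 1 of 18. FIG4, the phosphatase held in the same complex, changed by 0.02 ± 0.15 and 0.03 ± 0.15. SACM1L, which acts on PI(4)P in the endoplasmic reticulum, changed by 0.01 ± 0.14 and 0.04 ± 0.14, and INPP5F (SAC2), which acts on endosomal PI(4)P, by 0.20 ± 0.18 and 0.44 ± 0.18.

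The libraries themselves were also compared without a test, by counting members whose groups did not overlap. For shRNA-143, 8 members had all 3 libraries above all controls, against 7.09% of all tested genes higher in this way, and 0 were below, where 8.11% of all genes were. For shRNA-146 there were 11, against 7.25%, and 0 below, where 7.46% of all genes were. With both shRNAs there were 5 above (OCRL, SNX13, SNX16, SNX18 and SNX8), against 3.08% of all genes, and 0 below, where 2.77% were.

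Between the shRNAs, 0 of 49 members passed, without the block (0.0467% of all genes) or with it (1.2%). By the unadjusted p under 0.05, 0 members differed without the block, where 3.75% of all genes did, and 5 were higher with shRNA-146 in the blocked fit, where 5.9% of all genes were. OCRL was 0.38 ± 0.14 higher with shRNA-146 (adjusted p = 0.35, edgeR, blocked) and SYNJ1 0.52 ± 0.14 higher (adjusted p = 0.154). In CPM, INPP5A, MTMR4, OCRL, SNX30 and SYNJ1 had every shRNA-146 library above every shRNA-143 library, where 4.49% of all genes did, and 0 had every shRNA-146 library below, where 3.69% did.

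Levels per length in controls differed widely between members. SNX3 led at 334 ± 85.6 CPM per kilobase (SD, n = 3) and SNX10 followed at 64 ± 10.5, each without overlap with the next. SNX3 held 41.2% of the summed level of the 50 genes with shRNA-143, 41.2% with shRNA-146 and 42.6% in controls. Below them SNX17 (36.2), VPS26A (34.9), SNX4 (26.2), SNX11 (21.3), SNX5 (21.0) and SNX2 (20.9) overlapped neighbour by neighbour in their control ranges. SNX2, with a lowest control of 20, stood clear of SACM1L (16.9) but not of VPS29 (also 16.9), whose highest control was 20.8. At the low end were SNX29 (0.222), SNX22 (0.0635) and SNX32 (0.0328). The median tested member was at 4.43 in controls, against 2.35 over all tested genes. Of the genes that passed, INPP5A (9.18) lay above the member median, SNX9 (4.85) and OCRL (4.45) near it, and SNX13 (1.29), SYNJ1 (1.22) and SNX16 (0.839) below it.

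**Figure D3:**
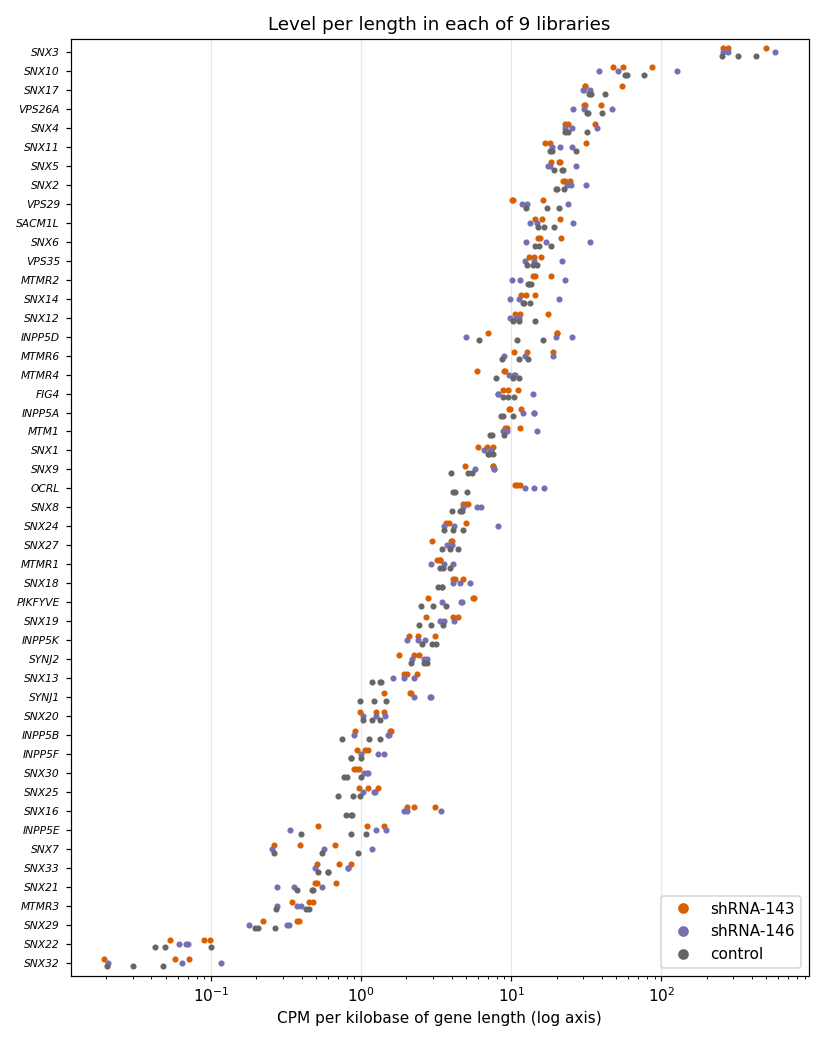
Level in CPM per kilobase of gene length (log x axis) of the 49 tested genes, one row each in order of the control mean, with 3 libraries per group. SNX3 and SNX10 stand apart at the top and SNX22 and SNX32 at the bottom. OCRL and SNX16 are rows where both shRNA groups lie wholly right of the controls.

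The libraries numbered 1 stood apart for many members in every group. In 20 of 49 members (40.8%) replicate 1 was the highest library in all 3 groups, and in 15 (30.6%) the lowest. Over all tested genes the shares were 25.9% and 28.4%. SNX7 was 2.04, 2.88 and 2.33 times the mean of replicates 2 and 3 in the shRNA-143, shRNA-146 and control groups, while INPP5E was 0.409, 0.248 and 0.411 times. Of the genes that passed, SNX16 was high and SYNJ1 and SNX9 low in replicate 1. The summed CPM of the 50 genes was 3590, 2850 and 2820 with shRNA-143 and 4240, 2910 and 2720 with shRNA-146, against 3170, 2710 and 2770 in controls. Without the libraries numbered 1, the blocked counts of members called higher were 6 for shRNA-143, 10 for shRNA-146 and 11 for the mean of both. The share of all tested genes that passed in either direction also rose, to 10.4%, 13.9% and 19.1%, from 3.17%, 4.42% and 5.74% with all libraries. That alternative was chosen after seeing the data.

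Longer genes were higher with the shRNAs, and the members are long, with a median deposited length of 5779 bases against 4550 over all tested genes. In the blocked fit for the mean of both shRNAs, the median log2 change of all genes in 5 equal bins of rising length was -0.22, -0.11, 0.01, 0.08 and 0.19. The 2, 10, 9, 13 and 15 members in those bins had medians of -0.04, 0.01, 0.40, 0.25 and 0.26. In the blocked fit a length correction left 2, 4 and 3 members called higher for shRNA-143, shRNA-146 and the mean of both, OCRL and SNX16 in each. Of all genes, 2.66%, 2.88% and 4.35% passed in either direction with the correction, against 3.17%, 4.42% and 5.74% without it. The part of length in the results was otherwise not tested.

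**Figure D4:**
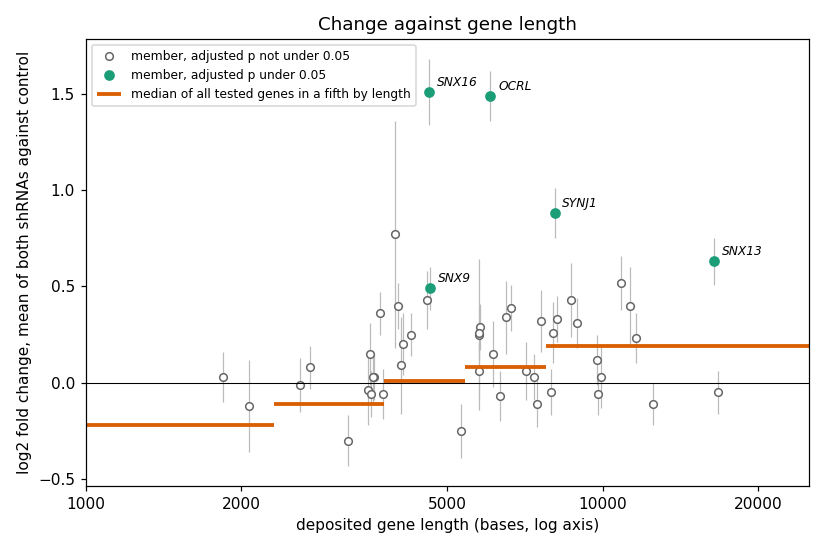
Log2 fold change of the mean of both shRNAs against control (y axis, blocked fit, bars of 1 SE) by deposited gene length (log x axis) for the 49 tested genes. Filled points passed at an adjusted p under 0.05, and orange lines are medians of all tested genes in 5 bins by length, which rise with length. OCRL and SNX16 lie far above the line of their bin.

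Other genes of the phosphoinositide and endosome pathways were counted in lists. In the fit without the block, 0 of them passed in any of the 4 comparisons, and the genes named here for the mean of both shRNAs had adjusted p-values from 0.203 (SLC2A1) to 0.631 (SORL1). In the blocked fit for that mean, where 5.74% of all genes passed, 4 of 26 endosome tethers and FYVE proteins rose: RUFY2 (1.28 ± 0.21), WDFY3 (0.69 ± 0.13), ZFYVE9 (0.67 ± 0.15) and ANKFY1 (0.53 ± 0.14). FYVE domains bind PI(3)P. Of 17 other phosphatases and cofactors, SBF2 (1.09 ± 0.19) and MTMR9 (0.61 ± 0.14), catalytically inactive partners of myotubularins, rose, and PIP4P2 (-0.60 ± 0.13) fell. Of 21 phosphoinositide kinases, PIK3CG (0.54 ± 0.12), the myeloid PI 3-kinase gamma, and PIP4K2C (0.45 ± 0.11) rose.

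Among 15 cargo receptors of endosomes, VLDLR (0.95 ± 0.15), SORL1 (0.59 ± 0.13) and the iron transporter SLC11A2 (0.46 ± 0.12) rose, and the glucose transporter SLC2A1 (-0.62 ± 0.10) fell. Of 16 further genes, mostly of PX domain proteins, the kinase SGK3 (0.74 ± 0.11) rose and NCF4 (-0.54 ± 0.12), the p40 subunit of the phagocyte oxidase, fell. None of 12 retromer partners and WASH complex genes, and none of 14 retriever and CCC complex genes, passed for the mean. Listed genes called in a single comparison of the blocked fit and not for the mean were WASHC4 and WDFY2, higher with shRNA-146 than in controls (0.67 ± 0.17, adjusted p = 0.0468, and 0.59 ± 0.14, adjusted p = 0.0395), and ITGB1, lower with shRNA-146 than with shRNA-143 (-0.72 ± 0.14, adjusted p = 0.04). WDFY2 and ITGB1 were named after their values were seen. Without the block WASHC4 was 0.69 ± 0.27 higher (adjusted p = 0.52). The median log2 change was 0.23 for tethers and FYVE proteins, 0.31 for other phosphatases and cofactors, 0.22 for kinases, 0.19 for cargo receptors and 0.41 for the other PX proteins. It was 0.05 for retromer partners and -0.24 for the retriever and CCC complexes, which recycle SNX17 cargo, against 0.01 over all genes.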

How the data were processed

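Polyadenylated RNA of 9 THP-1 libraries was sequenced. The authors deposited raw counts per gene, with gene annotation and length, and 1 comparison table per shRNA. Per the submitters' processing notes the build was hg38 and the tools were STAR 2.5, fastp, featureCounts and DESeq2, with no settings. Whether counting used strand is not stated there. The FPKM columns and normalized signal columns that the authors deposited were not used, and the log2 fold changes and p-values in the authors' deposited tables are quoted only as such.

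The members and lists were chosen with earlier results of these data known. Genes passing filterByExpr (14975) were tested by the robust quasi-likelihood method of edgeR 4.0.16 (R 4.3.3) after TMM scaling, at 0.05 after Benjamini-Hochberg adjustment. All 9 libraries entered 1 fit of group means (6 residual degrees of freedom), and a second added the replicate number (4). The numbers come from the titles, and the labels do not say what they share. Same-numbered libraries of different groups deviated together in 9 of 9 pairs (correlation of deviations 0.252 to 0.758), different-numbered ones at -0.678 to 0.535. SE is the log2 fold change over the root of F. Levels per length are TMM CPM per kilobase. Replicates differed by more than sampling noise (chi-square per degree of freedom 22 to 419). The fits were tested on simulated counts drawn without an effect of the replicate number, so that test cannot decide between the fits with and without the block. Alternatives were scalings, filters, DESeq2 1.42.0, limma-voom 3.58.1, a length correction, left-out libraries and only the compared groups. Named were members called in any comparison, the retromer trimer and, per role, the 2 highest in level and the 2 with the largest change. Other lists show up to 4 genes.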

Additional observations from a re-analysis of the deposited data

How the results depend on the processing

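The numbers of members called higher are given for shRNA-143, shRNA-146 and the mean of both shRNAs, in this order. Percentages in brackets are the shares of all tested genes that passed in either direction in the same setting. Without the replicate block the counts were 0, 1 and 1 (0.0467%, 0.0334% and 0.0334%), and with it 4, 6 and 5 (3.17%, 4.42% and 5.74%). Other settings without the block gave 2 for shRNA-143 with library size scaling (0.107%), and 3, 3 and 4 with DESeq2 (1.01%, 1.08% and 1.36%). Length correction gave 0 for shRNA-146 and the mean (0.0334% and 0.0134%), and the fit of only the 2 groups gave 0 for shRNA-146 (0%). Without the libraries numbered 1, an alternative chosen after seeing the data, the counts were 5, 6 and 7 (3.89%, 6.28% and 10.1%). Leaving out single libraries gave 0 to 2, 0 to 1 and 0 to 1 (at most 0.183%, 0.0196% and 0.0326%).

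With the block the counts were 4, 6 and 5 with median-of-ratios scaling (3.24%, 4.54% and 5.74%). They were 4, 9 and 8 with library size scaling (2.76%, 5.58% and 5.73%) and 5, 5 and 7 without a filter (4.5%, 5.99% and 7.06%). DESeq2 gave 5, 7 and 9 (6.68%, 9.35% and 11%), and limma-voom 3, 6 and 5 (3.13%, 4.73% and 5.52%). Length correction gave 2, 4 and 3 (2.66%, 2.88% and 4.35%), and the 2 groups alone 10 and 3 (19.4% and 1.5%). Without the libraries numbered 1 the counts were 6, 10 and 11 (10.4%, 13.9% and 19.1%). Leaving out single libraries with the block gave 2 to 7, 2 to 8 and 2 to 11. The counts were 2, 2 and 2 without control replicate 2 (0.378%, 0.176% and 0.0912%), with ties for shRNA-143 and the mean without other libraries. They were 7, 8 and 11 without shRNA-146 replicate 1 (13.7%, 11.4% and 20.1%). The cause was not tested. Members called lower numbered 0, except 1 (VPS29) for shRNA-143 in the 2 groups alone and without the libraries numbered 1, and for the mean without the latter, all with the block. Single left-out libraries with the block gave 0 to 1 lower for shRNA-143 and for the mean.

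In the blocked settings OCRL and SNX16 passed in all 18 for each shRNA and all 17 for the mean, while SYNJ1 passed in 17 of 18 for shRNA-146, failing without control replicate 2, and 9 of 18 for shRNA-143. SNX13 passed in 10 and 9 of 18, SNX9 in 7 of 18 for shRNA-146 and INPP5A in 9 of 18 for shRNA-146. No called value changed direction. The mean was not refitted with only its own groups, since it uses all 3. Few reads limit what can be said of SNX15, SNX22 and SNX32. SNX15 also shares 39.41% of its exonic bases with ARL2-SNX15 on the same strand, and the part of this in its counts was not tested.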
